A study of Mus musculus with 6 samples.

Results

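The Elavl genes encode the mouse counterparts of the fly Elav protein, a family of RNA-binding proteins. The family was taken as every probe set annotated to Elavl1, Elavl2, Elavl3 or Elavl4, which gave 13 of the 22626 probe sets other than array controls, or 4 of 12393 named genes. A probe set is a group of short oligonucleotide probes that is read as a single signal. Elavl1 had 2 probe sets, Elavl2 had 5, Elavl3 had 3 and Elavl4 had 3, so that 11 belonged to the neuronal genes. The 4 genes were chosen by symbol, with earlier results of these arrays known, so their changes between the groups are given as a description.

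Proteins of this family bind AU-rich and U-rich stretches of mRNAs through RNA recognition motifs and are known for stabilising those mRNAs and steering their splicing and translation. Elavl1, also called HuR, is made in nearly every cell type. Elavl2 (HuB), Elavl3 (HuC) and Elavl4 (HuD) are made mainly in neurons, from the time a progenitor leaves the cell cycle, and are used as early marks of the neuronal lineage.

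The arrays held the brains of mouse embryos of the Swiss Albino strain at E11.5, each brain on an array of its own. The diabetic group was 3 malformed brains of embryos whose mothers had been made diabetic with streptozotocin, a toxin of insulin-producing beta cells, and the control group was 3 brains of embryos of normal mothers. Every brain of the diabetic group was a malformed one, so the effects of the diabetes and of the malformation cannot be told apart, and whether brains came from shared litters is not stated, so that p-values measure the spread between these arrays. Replicates 1 and 2 of both groups were run on the MOE430A chip (the first table), and replicate 3 of both on the Mouse430A_2 chip (the second table), with another fluidics protocol and scanner type.

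Because signals differed between the chip versions, every difference was taken between arrays of the same table. Across the tested probe sets, correlations ran from 0.935 to 0.972 within a table and from 0.87 to 0.925 between tables. Median signals were 173 to 227 on the diabetic arrays and 165 to 222 on the control arrays. The ratio of 3′ to 5′ signal of the Gapdh control probes, a mark of RNA integrity, was 0.701 to 0.815 on diabetic arrays and 0.725 to 0.812 on control arrays. Levels of different probe sets are not on a common scale and were not compared with each other.

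The DNA before the start sites is shown for Elavl1, Elavl3 and Elavl4, because the comparison here is between the ubiquitous gene and its neuronal relatives, and E-boxes are the sites that proneural transcription factors bind. Each stretch is the 250 bases before an annotated start in RefSeq on GRCm38.p6, on the minus strand, written 5′ to 3′ with E-boxes of the form CANNTG in capitals. That for Elavl1 lies at chr8:4325101-4325350, that for Elavl3 at chr9:22052024-22052273, and those for start sites 1 and 2 of Elavl4, numbered from the 5′ end of the gene, at chr4:110351912-110352161 and chr4:110287528-110287777.
Elavl1: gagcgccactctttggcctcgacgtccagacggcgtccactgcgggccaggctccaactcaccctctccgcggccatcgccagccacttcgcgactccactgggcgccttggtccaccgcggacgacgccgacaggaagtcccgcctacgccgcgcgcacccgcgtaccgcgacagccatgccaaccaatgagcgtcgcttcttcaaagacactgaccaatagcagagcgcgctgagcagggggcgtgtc
Elavl3: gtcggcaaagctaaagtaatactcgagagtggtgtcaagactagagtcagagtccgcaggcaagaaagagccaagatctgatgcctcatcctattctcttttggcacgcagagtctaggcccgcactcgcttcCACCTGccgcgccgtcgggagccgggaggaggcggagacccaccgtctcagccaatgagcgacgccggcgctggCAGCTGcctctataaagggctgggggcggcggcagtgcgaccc
Elavl4 start 1: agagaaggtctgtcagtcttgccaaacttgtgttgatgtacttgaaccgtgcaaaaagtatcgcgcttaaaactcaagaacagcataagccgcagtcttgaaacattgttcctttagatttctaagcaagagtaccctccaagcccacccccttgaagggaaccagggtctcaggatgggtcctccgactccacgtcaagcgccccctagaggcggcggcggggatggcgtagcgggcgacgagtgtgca
Elavl4 start 2: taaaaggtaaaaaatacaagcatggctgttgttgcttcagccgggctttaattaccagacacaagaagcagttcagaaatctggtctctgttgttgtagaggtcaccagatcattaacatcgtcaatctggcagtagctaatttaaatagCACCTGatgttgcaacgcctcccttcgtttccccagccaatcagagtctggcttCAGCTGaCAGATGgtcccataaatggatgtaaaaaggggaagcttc

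The Elavl1 stretch held 0 matches to CANNTG, a motif that reads the same way on both strands. The Elavl3 stretch held 2 and that of Elavl4 start 2 held 3, while that of Elavl4 start 1 held 0. The last of the E-boxes before Elavl3 and the middle one before Elavl4 start 2 had the same letters, CAGCTG. Counting all annotated starts, 3 of 4 Elavl4 windows and 3 of 6 Elavl2 windows held CANNTG, and several of these windows overlap. Of all 32851 mouse windows of this length, 66.2% held CANNTG and 13% held CAGCTG, a motif found in 2 of the 4 Elavl4 windows and in 0 of the 6 Elavl2 windows. Those 2 Elavl4 windows, of start sites 2 and 3, overlap and hold the same CAGCTG site. The Elavl3 stretch also held TATAAA, searched on both strands and present in 12.4% of all windows. These matches describe letters in a window.

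Elavl4 was lower in the diabetic group by all 3 of its probe sets. For 2 of these, which share a sequence record, every diabetic array lay below every control array of its table. The same held for 10.7% of all tested probe sets. Probe set 1428741_at had signals of 750, 621 and 1244 on diabetic replicates 1 to 3, against 1104, 1083 and 1758 on control replicates 1 to 3. In each table the diabetic arrays lay below the control arrays, and the array of lowest signal was diabetic replicate 2. The log2 change, on the scale of log2(signal + 32), was -0.60 ± 0.16 (SE, n = 3 per group), made of -0.65 (first table) and -0.49 (second table). This was also the Elavl probe set with the smallest limma adjusted p, 0.631 over all probe sets tested, so it did not pass.

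The second Elavl4 probe set, 1452894_at, was designed from the same sequence record and so is no independent measure of the gene. Its signals were 594, 321 and 971 on diabetic replicates 1 to 3, against 700, 772 and 1174 on control replicates 1 to 3. The diabetic arrays again lay below the controls of their table, with diabetic replicate 2 at less than any other array. The log2 change was -0.56 ± 0.23 (SE, n = 3 per group), and it was -0.28 without diabetic replicate 2. The limma adjusted p was 0.682.

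The third Elavl4 probe set, 1450258_a_at, came from another record. Its signals were 380, 360 and 1050 on diabetic replicates 1 to 3, against 397, 620 and 909 on control replicates 1 to 3. The diabetic arrays were lower in the first table and higher in the second, so the groups overlapped. The log2 change was -0.20 ± 0.21 (SE, n = 3 per group), made of -0.40 (first table) and 0.20 (second table). Without control replicate 2 it was 0.033, so its direction rested on that array.

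**Figure D1:**
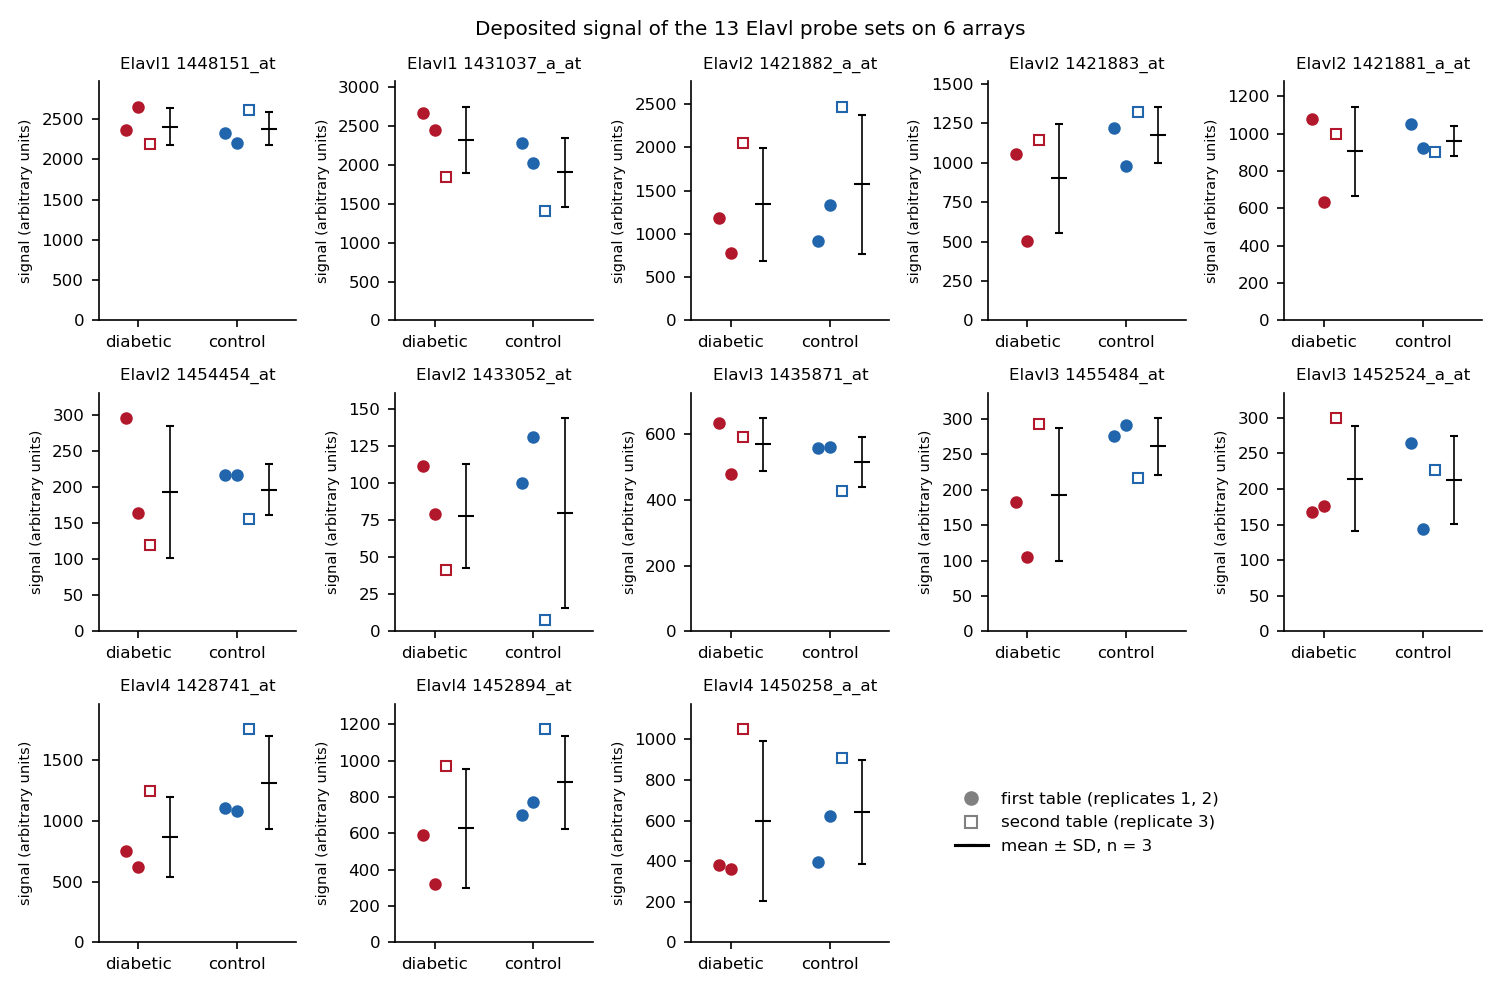
Deposited signal (vertical axis, arbitrary units, each panel on its own scale from 0) of the 13 Elavl probe sets on the 3 diabetic (red) and 3 control (blue) arrays. Filled circles are the first table, open squares the second, and bars are the mean ± SD (n = 3) over both tables. The bars thus include the difference between chip versions and do not show the spread between brains alone. Elavl4 1428741_at lies between 621 and 1244 on diabetic arrays and between 1083 and 1758 on control arrays, with the diabetic arrays lower within each table.

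Elavl1, the ubiquitous paralog, was not lower on either of its probe sets. Probe set 1448151_at had signals of 2372, 2651 and 2196 on diabetic replicates 1 to 3, against 2327, 2211 and 2613 on control replicates 1 to 3. The diabetic arrays were above the controls in the first table and below in the second, and the log2 change was 0.013 ± 0.17 (SE, n = 3 per group). The sign of this value was turned by leaving out diabetic replicate 2, control replicate 1 or control replicate 2, which gave -0.070, -0.0035 and -0.045.

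The other Elavl1 probe set, 1431037_a_at, is of the kind whose probes match several transcripts of a gene. It had signals of 2670, 2446 and 1850 on diabetic replicates 1 to 3, against 2280, 2025 and 1410 on control replicates 1 to 3. Every diabetic array lay above the controls of its table, as held for 11% of all tested probe sets. The log2 change was 0.29 ± 0.16 (SE, n = 3 per group) with a limma adjusted p of 0.704. The Elavl1 probe sets thus had opposite signs in the second table, -0.25 for 1448151_at and 0.38 for 1431037_a_at, and like signs in the first, 0.14 and 0.25.

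Elavl2 was lower by 4 of its 5 probe sets, and the groups overlapped for each of the 5. The probe set of highest signal, 1421882_a_at, had 1189, 781 and 2056 on diabetic replicates 1 to 3, against 916, 1332 and 2466 on control replicates 1 to 3. Diabetic replicate 1 lay between the control arrays of its table and diabetic replicate 2 below them. The log2 change was -0.21 ± 0.21 (SE, n = 3 per group), and it was -0.052 without diabetic replicate 2.

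Probe set 1421883_at of Elavl2 had signals of 1055, 505 and 1144 on diabetic replicates 1 to 3, against 1223, 979 and 1324 on control replicates 1 to 3. Probe set 1421881_a_at had 1079, 635 and 1000 on diabetic replicates 1 to 3, against 1051, 924 and 901 on control replicates 1 to 3. On both, diabetic replicate 2 had the lowest signal of the 6 arrays, and the other diabetic arrays lay among the controls or close to them. The log2 changes were -0.44 ± 0.26 for 1421883_at and -0.11 ± 0.22 for 1421881_a_at (SE, n = 3 per group). Without diabetic replicate 2 they were -0.12 and 0.14. These sets and 1421882_a_at were designed from a single record.

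The dimmer Elavl2 probe sets came from another record. Probe set 1454454_at had signals of 296, 164 and 120 on diabetic replicates 1 to 3, against 218, 217 and 156 on control replicates 1 to 3, which gave a log2 change of -0.086 ± 0.22 (SE over 3 arrays per group). Its sign turned without diabetic replicate 2, with 0.096. Probe set 1433052_at had a mean signal of 78.6, under the minimum of 100 set for testing, and it was the family's only probe set outside that minimum, 1454454_at being the nearest inside it with 195. Its signals were 112, 79.3 and 41.6 on diabetic replicates 1 to 3, against 100.02, 131 and 7.83 on control replicates 1 to 3, and the log2 change of 0.15 ± 0.26 (SE, n = 3 per group) came from the second table, where both signals were low. That SE is from a separate fit without the signal minimum.

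Elavl3, which is known for appearing later than its neuronal relatives, had probe sets of differing signs. Probe set 1435871_at had signals of 634, 479 and 592 on diabetic replicates 1 to 3, against 558, 561 and 428 on control replicates 1 to 3. Diabetic replicate 2 was below the controls of its table and the other diabetic arrays above them. The log2 change was 0.13 ± 0.18 (SE, n = 3 per group), and the tables gave -0.019 (first) and 0.44 (second).

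Probe set 1455484_at of Elavl3, from the same record, had signals of 182, 105 and 292 on diabetic replicates 1 to 3, against 276, 292 and 216 on control replicates 1 to 3. In the first table both diabetic arrays were far below the controls, and in the second the diabetic array was the higher one. The log2 change was -0.46 ± 0.28 (SE, n = 3 per group), made of -0.88 (first table) and 0.39 (second table), and it was -0.16 without diabetic replicate 2. Probe set 1452524_a_at had 168, 176 and 299 on diabetic replicates 1 to 3, against 265, 144 and 227 on control replicates 1 to 3, a log2 change of 0.0087 ± 0.23. The mean of the diabetic arrays was below that of the controls for all 3 Elavl3 probe sets in the first table, and above it for all 3 in the second.

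**Figure D2:**
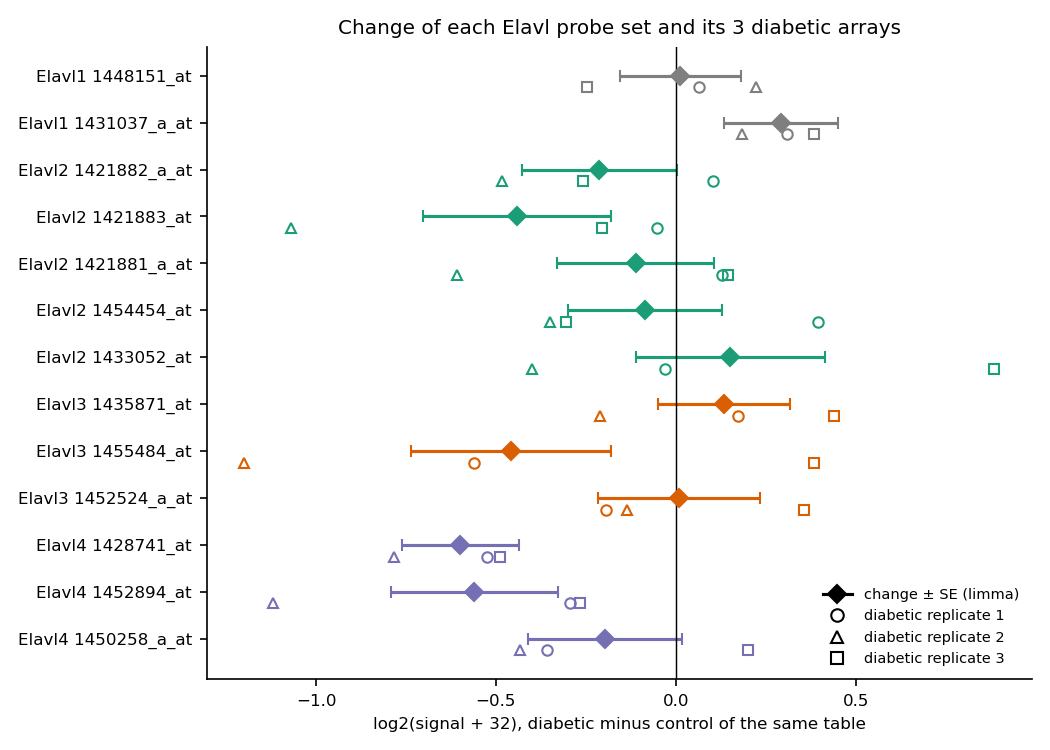
Log2 change of each Elavl probe set, diabetic minus control within a table on the scale of log2(signal + 32) (horizontal axis; diamonds with bars are the estimate ± SE), and below each the 3 diabetic arrays against the control mean of their table. For all 11 neuronal probe sets the triangle of diabetic replicate 2 lies left of 0, between -1.20 and -0.13, and the Elavl1 triangles lie at 0.18 and 0.22.

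Across the family, limma called 0 of the 12 tested probe sets, against 0 of 14915 probe sets tested in all (0% called). At an unadjusted p under 0.05, limma counted 2 of the 12, both of Elavl4 and both lower, beside 3.94% of all tested probe sets on the lower side (1081 probe sets, or 7.25%, on either side). The diabetic arrays lay wholly below the controls of their table for 2 of the 12, beside 10.7% of all tested, and wholly above for 1 of the 12, that of Elavl1, beside 11% of all. Of all 11 neuronal probe sets, 8 had a log2 change below 0, where 46.8% of all probe sets without a signal minimum did, and 4 were below 0 in both tables, beside 22.8%. The median over the 11 was -0.20, against 0.0067 over all probe sets tested. The family was chosen with this contrast known, so these counts support nothing beyond the description.

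The arrays contributed unequally. On diabetic replicate 2, all 11 neuronal probe sets were below the control mean of their table, with a median of -0.48, where 53.6% of all tested probe sets were. On diabetic replicate 1, 7 of 11 were below it with a median of -0.051, and on diabetic replicate 3, 5 of 11 with a median of 0.15. Diabetic replicate 2 held the lowest signal of the 4 first-table arrays for 10 of the 11 neuronal probe sets and for 0 of the 2 of Elavl1, beside 32.8% of all tested probe sets. Without diabetic replicate 2, 6 of the 11 had a change below 0, and the Elavl4 probe sets had -0.51, -0.28 and -0.12.

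Set against Elavl1 within each array, Elavl4 by its probe set of highest signal, 1428741_at, lay below 0 on every diabetic array with either Elavl1 probe set. Using each gene's probe set of highest signal, the Elavl4 change minus the Elavl1 change was -0.59, -1.01 and -0.24 on diabetic replicates 1 to 3, a mean of -0.61 ± 0.38 (SD, n = 3). With the other Elavl1 probe set it was -0.83, -0.97 and -0.87, a mean of -0.89 ± 0.069 (SD, n = 3). Each of these 6 differences was below 0, and the same 3 values of 1428741_at enter with both Elavl1 probe sets. Every change here was taken from the control mean of its table, so diabetic replicates of the same table share controls. The SDs therefore cover the spread of the diabetic arrays alone, leave out that of the control arrays, and are no measure of precision. The limma SE, which includes the control arrays, was 0.16 for the change of 1428741_at and also for that of Elavl1 1431037_a_at. Elavl4 1450258_a_at, from another record, stood at 0.20 on diabetic replicate 3, above -0.25 for Elavl1 1448151_at. No test was made of these differences, because the genes were chosen with the contrast known.

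For Elavl2 the change minus that of Elavl1 was 0.039, -0.71 and -0.011 on diabetic replicates 1 to 3, a mean of -0.23 ± 0.42 (SD, n = 3). With that Elavl1 probe set it was 0.018 without diabetic replicate 2. With the other Elavl1 probe set the Elavl2 difference was -0.21, -0.67 and -0.64, a mean of -0.51 ± 0.26 (SD, n = 3), and below 0 on every diabetic array. Whether Elavl2 1421882_a_at stood below Elavl1 on each array thus depended on the Elavl1 probe set. The Elavl2 probe set mattered as well: on diabetic replicate 1, 1454454_at stood at 0.40, above 0.31 for Elavl1 1431037_a_at. For Elavl3, by 1435871_at, the change minus that of Elavl1 was 0.11, -0.43 and 0.69, a mean of 0.12 ± 0.56 (SD, n = 3). With the other Elavl1 probe set it was -0.14, -0.39 and 0.055, a mean of -0.16 ± 0.23 (SD, n = 3). By 1435871_at, the Elavl3 difference had arrays on both sides of 0 with either Elavl1 probe set. The SDs given for the Elavl2 and Elavl3 differences likewise leave out the spread of the control arrays. Elavl3 1452524_a_at stood at -0.19, -0.13 and 0.36 on diabetic replicates 1 to 3. Elavl1 1431037_a_at stood at 0.31, 0.18 and 0.38, above it on each array, so the position of Elavl3 depended on the probe sets taken.

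The likeness of 2 patterns was measured as the root mean square difference of log2 signals over the 6 arrays, after removing the mean of each table. Among the 4 genes themselves, by their probe sets of highest signal, the nearest pair was Elavl1 and Elavl3 with 0.26, and the farthest was Elavl3 and Elavl4 with 0.37. Between probe sets of the same gene the difference was 0.21 for the Elavl1 sets, 0.18 to 0.43 within Elavl2, 0.26 to 0.43 within Elavl3 and 0.18 to 0.32 within Elavl4, where the sets of the shared record were the nearest pair. Probe sets of Elavl3 could therefore differ by more than any pair of these genes. For Elavl2 this held only for pairs with 1433052_at, which was under the signal minimum. Its tested probe sets differed by 0.31 at most.

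Among 8622 other genes, those nearest to Elavl4 were Ttc30a1, which encodes a component of cilium transport, with a difference of 0.023, Pigk, a subunit of the enzyme that attaches GPI anchors, with 0.048, and Mterf3, a mitochondrial transcription factor, with 0.049. Their log2 changes were -0.61, -0.58 and -0.53. Nearest to Elavl1 were Brap with 0.0099, Cks1b, a partner of cyclin-dependent kinases, with 0.014, and Nfe2l2, the transcription factor of the antioxidant response, with 0.022. Nearest to Elavl2 were Cdc37l1 with 0.044, Tyrobp, an adaptor of macrophage receptors, with 0.057, and Rbm7 with 0.063. Nearest to Elavl3 were 1700037H04Rik with 0.018, Pitpnb, a phospholipid transfer protein, with 0.019, and Sgce with 0.029. The median difference over all those genes was 0.21 to 0.35, and with 6 arrays many genes come close to any pattern.

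**Figure D3:**
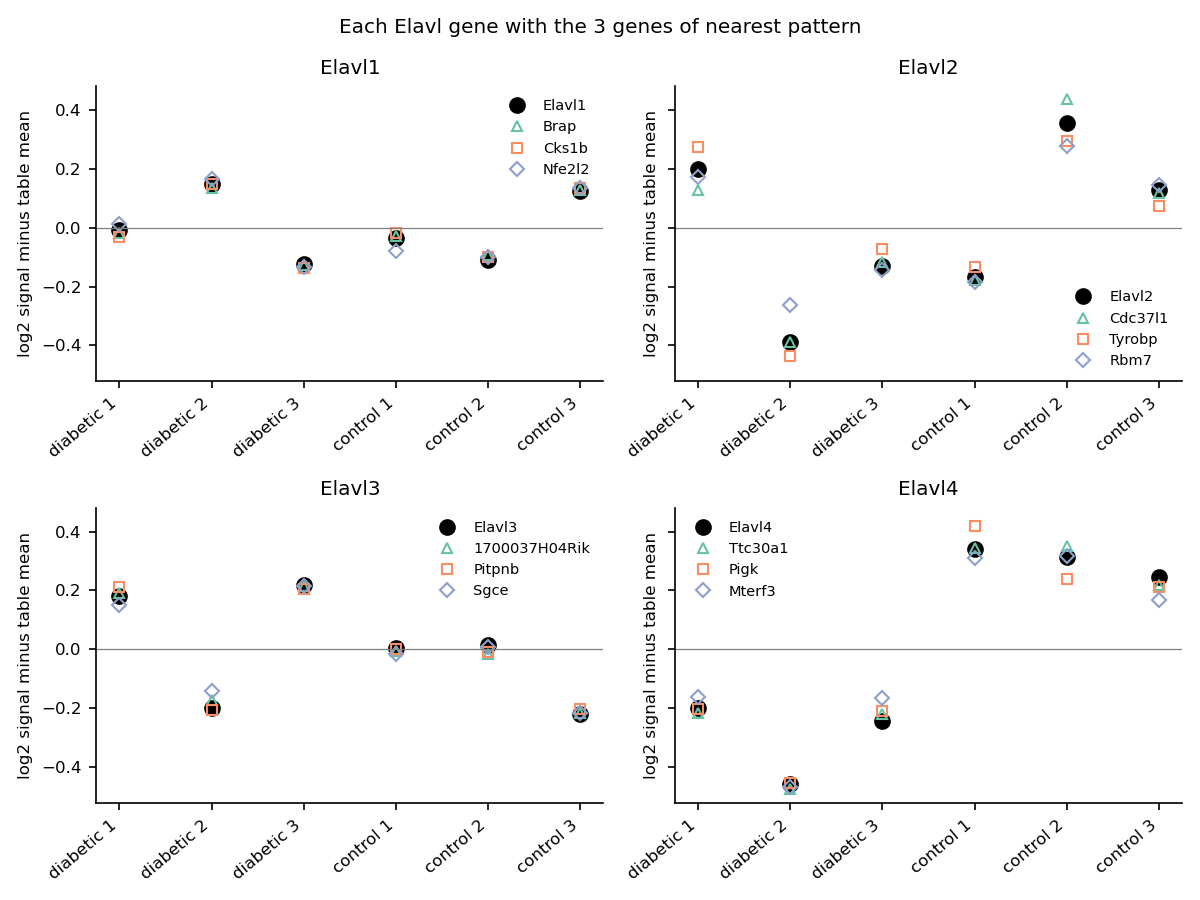
Log2(signal + 32) minus the mean of the table (vertical axis) on the 3 diabetic and 3 control arrays for each Elavl gene (black circles) and the 3 genes nearest to it (open symbols). Each Elavl gene is drawn by its probe set of highest signal. Elavl4 1428741_at lies below 0 on the 3 diabetic arrays and above 0 on the 3 control arrays, whereas those of Elavl1, Elavl2 and Elavl3 have arrays of both groups on both sides of 0. Elavl4 1450258_a_at, whose groups overlapped, is not drawn.

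Markers of neurons other than the Elavl genes were also mostly below 0. Of 19 tested neuron markers, 17 were below 0, with a median log2 change of -0.32 beside 0.012 over the 8627 genes tested, where 47.8% were below 0. In bulk tissue, fewer neurons and less RNA per neuron cannot be told apart. The summed signal of the 19 markers was 14794, 9830 and 23319 on diabetic replicates 1 to 3, against 18729, 18511 and 20404 on control replicates 1 to 3, and 0 of them had a mean signal under 100. Insm1, a zinc finger factor of newly formed neurons, had -0.82 ± 0.25, Ina, the neurofilament protein alpha-internexin, -0.76 ± 0.25, and Neurod1, a proneural factor, -0.55 ± 0.22 (SE, n = 3 per group), and 0 of the markers passed in limma after adjustment over all probe sets. Without diabetic replicate 2, Insm1 had -0.52, Ina -0.43 and Neurod1 -0.39.

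The neuron markers had medians of -0.22 (diabetic replicate 1), -0.82 (replicate 2) and 0.061 (replicate 3), and one of -0.012 when replicate 2 was left out, with 10 of 19 below 0. Elavl4 probe set 1428741_at stood -0.31, 0.038 and -0.55 from that median on the same arrays. Probe set 1452894_at stood -0.079, -0.30 and -0.33 from it, and 1450258_a_at, from another record, -0.14, 0.39 and 0.14. The Elavl4 probe sets thus did not share a position relative to the neuron markers: 1452894_at was below their median on all 3 diabetic arrays, 1428741_at on replicates 1 and 3, and 1450258_a_at on replicate 1. The part of the number of neurons in the Elavl4 change was not tested.

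Markers of progenitors, the dividing cells that precede neurons, had a median of 0.049 over 15 genes, 7 below and 8 above 0. Sox1 had 0.63 ± 0.17, Fabp7, a lipid-binding protein of the radial glia, -0.62 ± 0.23, and Msi1, an RNA-binding protein of neural progenitors, 0.73 ± 0.45 (SE, n = 3 per group). Fabp7 had -0.37 without diabetic replicate 2. Msi1 had 1.16 (first table) and -0.12 (second table), and 0.058 without control replicate 1, where its signal was 433 against 1752 on control replicate 2. The median of the progenitor list was -0.014 without diabetic replicate 1. The list of peripheral neuron markers, taken because such neurons also make Elavl proteins, had 5 of 5 genes below 0, with a median of -0.13. Without diabetic replicate 2 it had 2 of 5 below 0, with a median of 0.022. Whether its genes mark peripheral neurons in these whole brains was not tested. Mesenchyme markers were below 0 for 14 of 15 genes, with a median of -0.27. Without diabetic replicate 2 they were below 0 for 14 of 15, with a median of -0.23. Their signals summed to 15909, 15644 and 18848 on diabetic replicates 1 to 3, against 18534, 18856 and 22629 on control replicates 1 to 3. In each table the diabetic sums lay below the control sums. Medians of the endothelial, erythroid, surface epithelium and macrophage lists were 0.069, 0.089, -0.086 and -0.25 over 9, 8, 9 and 5 tested genes. The macrophage median was 0.047 without diabetic replicate 2. Without either replicate 3 the endothelial, erythroid and surface epithelium medians were -0.039, -0.060 and 0.13, so the median of each of these 4 lists changed sign when an array was left out. The macrophage list had Aif1, Ptprc and Fcer1g under the signal minimum. None of the members of these lists passed in limma after adjustment, and their part in the Elavl changes was not tested.

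Of 10 genes listed here under other proteins that bind AU-rich elements, 8 were above 0 and 2 below, with a median of 0.18, and 0 passed. Over the 8627 genes tested, 47.8% were below 0. Pabpc1, the cytoplasmic poly(A)-binding protein, had 0.35 ± 0.20, Zfp36, which promotes decay of the mRNAs it binds, 0.50 ± 0.30, and its relative Zfp36l1 -0.24 ± 0.16 (SE, n = 3 per group). Zfp36 had a change of 1.26 on diabetic replicate 2, against -0.060 and 0.32 on diabetic replicates 1 and 3, and 0.10 without that array. Pabpc1 had 0.15 without control replicate 1, and Zfp36l1 -0.13 without either replicate 3. Of 28 other RNA-binding proteins of the nervous system, 19 were below 0, with a median of -0.077, and 0 passed. Stau2, which carries mRNAs in dendrites, had -0.38 ± 0.19, and the splicing regulators Celf2 and Celf4 had -0.32 ± 0.16 and -0.34 ± 0.18. Without either replicate 3, Stau2 had -0.20, Celf4 -0.51 and the list a median of -0.13.

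The reported mRNA targets of the Elavl proteins lay on both sides of 0. Of 15 tested targets of the neuronal proteins, 9 were below 0 and 6 above, with a median of -0.091, and 5 of the 15 also stood in the neuron list. That median was 0.059 without either replicate 3. Nefm, a neurofilament subunit, had -0.35 ± 0.17 and Marcks, an actin regulator at the membrane, -0.30 ± 0.16 (SE, n = 3 per group), beside Neurod1 above. Of 20 tested targets of Elavl1, 10 were below 0 and 10 above, with a median of -0.018 that changed sign with several arrays left out. The lists of targets shared 4 tested genes, and 3 of the Elavl1 targets also stood in the progenitor list. Slc2a1, the glucose transporter, had 0.83 ± 0.34, Vegfa, the endothelial growth factor, 0.70 ± 0.30, and Xiap, an inhibitor of apoptosis, -0.32 ± 0.16. Without diabetic replicate 2, Slc2a1 had 0.35 and Vegfa 0.31, and 0 targets passed in limma after adjustment.

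**Figure D4:**
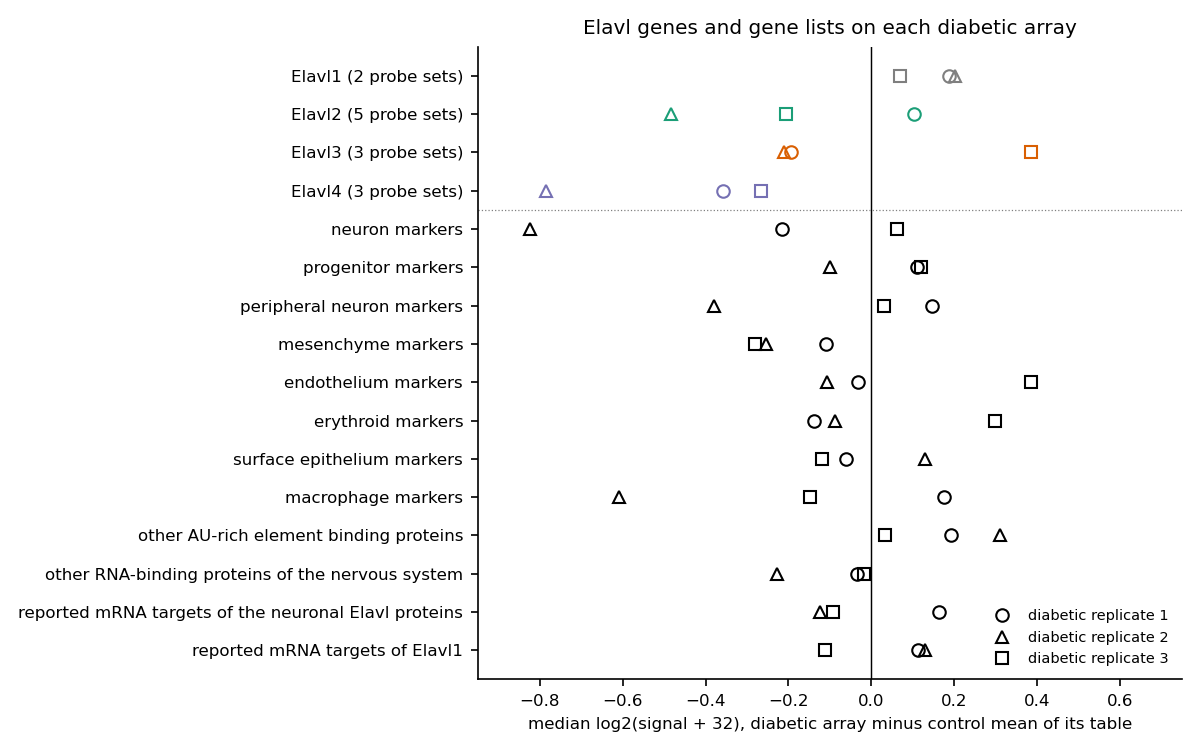
Median log2 difference of each Elavl gene's probe sets (above the dotted line) and of each gene list (below it) on the 3 diabetic arrays against the control mean of the same table (horizontal axis). Diabetic replicate 2 (triangles) is lowest for neuron markers, at -0.82, and for Elavl4, at -0.78, and Elavl1 lies at 0.19, 0.20 and 0.068 on diabetic replicates 1 to 3.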

How the data were processed

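RNA of 6 embryonic brains (3 diabetic, 3 control) was measured on Affymetrix arrays, and the sample titles give groups and replicate numbers. The authors deposited linear intensity values per probe set in 2 tables, made with GCOS per the submitters' processing notes, with version, algorithm and settings not given in the sources used here. The run settings deposited with each array give the chip type, per the file headers. Arrays were rescaled to a mean of 500 after trimming 2% at each end, a shift of no more than 0.0363%, and put on the scale of log2(signal + 32), which understates changes of low signals.

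Of 22690 probe sets, 64 array controls were left out, and 14915 had a mean signal of 100 or more. These were fitted with limma 3.58.1 under R 4.3.3 (two-sided tests of lmFit with eBayes, Benjamini-Hochberg adjusted, threshold 0.05) with the table as a block, which left 3 residual and 6.03 prior degrees of freedom. The median standard error was 0.182, and precision is limited by the number of arrays. The fit was tested on simulated data. Genes in lists were represented by the probe set whose mean log2 signal was highest and named only from probe sets with 1 gene in the platform annotation. Named genes were the Elavl probe sets, the 3 genes nearest to each Elavl gene, and the 3 members of smallest unadjusted p of each list, without genes of embryo sex. From the lists of endothelium, erythroid, surface epithelium, macrophage, mesenchyme and peripheral neuron markers, the members this rule names are not given one by one; medians, counts, the summed mesenchyme signal and the macrophage markers under the signal minimum are. Start sites were matched by symbol for all 4 genes in RefSeq. Members, lists and tests were chosen with earlier results of these data known. Alternatives covered the pseudocount, the signal minimum, the scaling, the block, array weights, summaries by gene and each array left out; leaving out arrays was extended to the gene lists after seeing the data.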

Additional observations from a re-analysis of the deposited data

How the results depend on the processing

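Over the alternatives, limma called 0 probe sets except in the first table alone, where it called 2, neither of them of Elavl. As arrays were left out in turn, the count called ran from 0 to 2, since leaving out either replicate 3 leaves the first table. A replicate block in place of the table left the count at 0, gave Elavl4 1428741_at -0.60 ± 0.17 (SE) with a limma adjusted p of 0.623, and changed no call. Same-numbered arrays of the first table had deviations that correlated at 0.016 across probe sets, so the numbers were not taken to pair the brains.

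Settings that leave a log2 change the same by construction (the blocks, the signal minimum, the gene by its probe set of highest signal) are not counted here, and the first table alone is counted once. Over the 11 other settings and the 12 tested probe sets, 119 of 132 log2 changes kept their direction and 13 did not, and none passed the threshold. Among these settings, the signals as deposited differ from the rescaled ones by no more than 0.0363%, so a kept direction there was all but given. Elavl4 1428741_at and 1452894_at kept theirs throughout, from -0.66 to -0.51 and from -0.75 to -0.28 as arrays were left out. Elavl4 1450258_a_at turned to 0.033 without control replicate 2. In the first table alone, and so without either replicate 3, Elavl2 1454454_at had 0.024, Elavl3 1435871_at -0.019 and Elavl3 1452524_a_at -0.16. Elavl3 1452524_a_at had -0.0057 with quantile normalization over all arrays and -0.16 without control replicate 2. With array weights, Elavl2 1421881_a_at had 0.025 and 1454454_at 0.11, and without diabetic replicate 2 they had 0.14 and 0.096. Elavl1 1448151_at had -0.070 without diabetic replicate 2, -0.0035 without control replicate 1 and -0.045 without control replicate 2. Averaging the probe sets of a gene gave Elavl3 -0.11. Over left-out arrays, the lowest values were -0.29 for Elavl2 1421881_a_at, -0.33 for Elavl2 1454454_at and -0.40 for Elavl4 1450258_a_at, and the highest were 0.29 for Elavl3 1435871_at and 0.27 for Elavl3 1452524_a_at. The cause was not tested.

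Between probe sets of highest signal, the difference from Elavl1 ran over left-out arrays from -0.80 to -0.44 for Elavl4 and from -0.41 to 0.018 for Elavl2. For Elavl3 it ran from -0.16 to 0.36, with -0.16 in the first table, and it was -0.26 with probe sets averaged. The number of neuronal probe sets below 0 ran from 6 to 10 of 11 as arrays were left out. Averaged over the probe sets of a gene, the log2 change was 0.15 for Elavl1, -0.21 for Elavl2 and -0.45 for Elavl4.

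As arrays were left out, a choice made after seeing the data, list medians ran from -0.51 to -0.012 for neuron, -0.014 to 0.10 for progenitor, -0.31 to 0.022 for peripheral neuron, -0.29 to -0.23 for mesenchyme, -0.039 to 0.12 for endothelium, -0.060 to 0.18 for erythroid, -0.047 to 0.13 for surface epithelium and -0.36 to 0.047 for macrophage markers. They ran from 0.096 to 0.26 for AU-rich element binding proteins, -0.15 to -0.046 for other RNA-binding proteins, -0.15 to 0.059 for targets of the neuronal proteins and -0.080 to 0.17 for targets of Elavl1.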
